A study of Mus musculus with 3 samples.

Results

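MicroRNA hairpin arms were compared between testis and uterus, both from adult mice of CD1, an outbred strain. A microRNA is cut from a hairpin precursor, and its 5p and 3p arms are the strands on the left and right of the hairpin loop. An arm was counted from reads of 20 to 24 nt that matched an annotated mouse hairpin in full and in sense, and reads were assigned to an arm by their midpoint. Hairpin copies that shared most of their reads were merged, so that let-7c-1 and let-7c-2 give 1 arm. Of 848 arms with a read in either library, 221 had 100 or more reads in testis or in uterus and were kept. The groups were untreated tissue as far as the labels say: adult testis with 1 library and adult uterus with 1 library, both from total RNA ligated to adapters, amplified by PCR and sequenced. The labels do not say how many animals, which ages or which stage of the oestrous cycle the RNA came from. The series also holds mature sperm, which is not compared here. With it, 233 of 888 arms passed the same minimum.

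With 1 library per tissue there is no replicate check, and no test or p-value was made. Intervals are exact 95% binomial intervals of shares and of ratios of shares, and they cover counting error only, since PCR reads are not independent molecules. Both tissues are mixtures of cell types, and in such bulk RNA more cells of a type and more RNA per cell cannot be told apart.

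MicroRNAs load into Argonaute proteins and pair with messenger RNAs chiefly through the seed, bases 2 to 8 from their 5′ end, which lowers the stability and translation of those messengers. Arms with the same seed can therefore pair with overlapping sets of messengers. In testis, miR-34b, miR-34c and miR-449 are known from meiotic and later germ cells, and an X-linked cluster of fast-evolving microRNAs is expressed in male germ cells. The uterus is built of smooth muscle, stroma and epithelium, where miR-143 with miR-145, miR-199 with miR-214, and the miR-200 family are known markers. Testis germ cells also make piRNAs, longer small RNAs bound by PIWI proteins.

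The sequences below are mature microRNAs that the results turn on, those named most and those that share a seed, from RefSeq (GRCm38.p6), with the seed in capitals. Of the 221 kept arms, 189 matched a RefSeq mature sequence by name. The first group had larger shares in testis.
miR-34b-5p: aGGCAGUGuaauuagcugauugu
miR-449a-5p: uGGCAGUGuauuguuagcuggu
miR-202-5p: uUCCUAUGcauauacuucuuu
miR-881-3p: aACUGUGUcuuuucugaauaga
miR-470-5p: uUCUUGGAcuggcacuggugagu
miR-743a-3p: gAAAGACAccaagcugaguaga
miR-743b-3p: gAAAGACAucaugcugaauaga
miR-465a-5p: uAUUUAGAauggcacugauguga
miR-465c-5p: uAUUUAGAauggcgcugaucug
miR-16-5p: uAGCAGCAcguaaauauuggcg
miR-15b-5p: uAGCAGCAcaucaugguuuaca
miR-93-5p: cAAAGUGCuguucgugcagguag

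The second group had larger shares in uterus, except let-7g-5p, whose share was larger in testis. It includes let-7 members that share 1 seed and differ in later bases, and the pair miR-221 and miR-222, which also share a seed.
let-7c-5p: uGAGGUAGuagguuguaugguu
let-7b-5p: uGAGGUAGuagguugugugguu
let-7e-5p: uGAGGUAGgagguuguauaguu
let-7f-5p: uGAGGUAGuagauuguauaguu
let-7g-5p: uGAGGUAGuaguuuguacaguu
miR-199a-3p: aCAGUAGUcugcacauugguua
miR-221-3p: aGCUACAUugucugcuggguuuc
miR-222-3p: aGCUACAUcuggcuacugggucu
miR-196b-5p: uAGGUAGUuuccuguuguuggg
miR-10a-5p: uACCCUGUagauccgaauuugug
miR-21a-5p: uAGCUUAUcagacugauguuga

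The libraries differed greatly in how much microRNA they held. The testis library had 23783785 reads, of which 187269 (0.787%) fell on hairpin arms. The uterus library had 15876066 reads, of which 10372607 (65.3%) did. Therefore 100 reads stand for 534 reads per 1000000 arm reads in testis and for 9.64 in uterus, and the limit that a count of 0 allows (3 reads) is 16.02 per 1000000 in testis and 0.289 in uterus. An arm had a read in 454 cases in testis and in 758 cases in uterus, and 100 or more reads in 75 and 202 cases. The kept arms held 98.9% of testis and 99.9% of uterus arm reads, and levels below are shares of, or reads per 1000000 of, all arm reads of a library.

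A single microRNA led the testis library. miR-34c-5p had 83730 testis reads, 44.7% of all arm reads, and 5311 uterus reads, 0.0512%. In testis it was followed by let-7f-5p with 11.8%, let-7c-5p with 7.88%, let-7a-5p with 5.002%, let-7g-5p with 3.11% and let-7b-5p with 2.06%. Next came miR-103-3p with 1.87%, miR-29a-3p with 1.60%, miR-191-5p with 1.49% and miR-202-5p with 1.39%. Reads that match both miR-103-3p and miR-107-3p were counted for miR-103-3p. Of 1224 testis reads that matched miR-107-3p, only 188 were counted for it, so the rank of miR-103-3p rests on this rule. Uterus was led by let-7 members in place of miR-34c: let-7c-5p had 29.9% of its arm reads, let-7f-5p 21.6%, let-7a-5p 12.4% and let-7b-5p 8.84%. The next were miR-1a-3p, a muscle microRNA, with 5.76%, the merged arm miR-199a/199b-3p with 4.39%, let-7g-5p with 1.95%, let-7e-5p with 1.44%, miR-29a-3p with 1.40% and let-7d-5p with 1.28%. The lists of leading arms thus share let-7f, let-7c, let-7a, let-7g, let-7b and miR-29a. The 10 leading arms held 80.9% of the arm reads in testis and 89.0% in uterus. The effective number of arms, the exponential of the Shannon entropy of the shares, was 13.1 in testis and 10.8 in uterus.

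**Figure D1:**
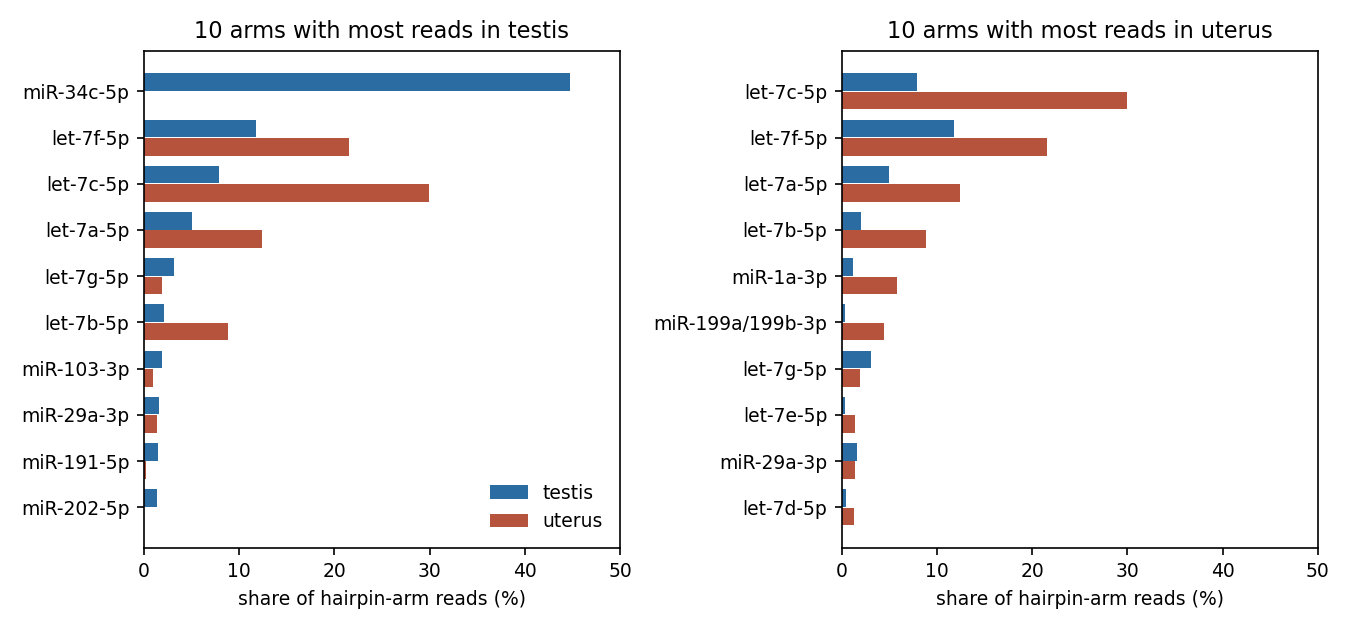
Bars give the share of all hairpin-arm reads (%) of the 10 arms with most reads in testis and in uterus, in testis (blue) and uterus (red), 1 library each. miR-34c-5p stands at 44.7% in testis and 0.0512% in uterus, and let-7c-5p at 7.88% and 29.9%.

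Because miR-34c and let-7 dominate the totals, shares were also taken over the arm reads outside the let-7 and Mir34c hairpins. These were 45249 reads in testis (24.2% of its arm reads) and 2289454 in uterus (22.1%), so the log2 ratio of every arm moved by only -0.13. What is left was spread over more arms in testis, where the 10 leading arms held 47.3% against 76.4% in uterus. Testis was then led by miR-103-3p, a broadly expressed microRNA, with 7.75% (interval 7.504 to 7.998) against 4.41% in uterus. That lead rests on counting for it the reads that also match miR-107-3p. miR-29a-3p followed with 6.64% against 6.36%, a near equal share. Then came miR-191-5p with 6.17% against 1.09%, miR-202-5p with 5.76% against no read, and miR-140-3p with 5.05% against 3.46%. Uterus was led by miR-1a-3p with 26.1% against 4.86% in testis, and by miR-199a/199b-3p with 19.9% against 1.51%. miR-143-3p, of smooth muscle, had 5.38% of the remaining uterus reads and 1.98% of those of testis, and miR-21a-5p had 4.47% and 0.871%. Of the 10 leading arms without let-7 and miR-34c, 4 were in both lists.

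Most arms were not called. An arm was called higher where its share was at least 4 times that in the other library. In testis 53 of 221 arms were called higher (24%), in uterus 31 (14%), and 137 (62%) were not called. The median log2 ratio of testis over uterus was 0.29 over all 221. Not called does not mean alike: of the 137, 12 had no testis read, so that only an upper bound of their ratio is known, and in 67 the interval or bound leaves a difference of 4-fold or more possible. In the other 70 it lay within 4-fold. The whole interval lay past 4-fold for 42 of the 53 and for 12 of the 31. Scaling moves this split. Without let-7 and miR-34c in the total it was 49 and 34, with edgeR's TMM factors 35 and 76, with DESeq2 size factors 35 and 82, and per all reads of each library 19 and 191. TMM factors over the kept arms only, chosen after seeing the data, gave 42 and 42. These scalings move every log2 ratio by -1.39 (TMM), -1.50 (DESeq2), -6.37 (all reads) and -0.46 (TMM over kept arms). All values below are relative to all arm reads, and a ratio below these shifts can turn with the scaling.

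The minimum of reads also shapes the calls, since the uterus library holds far more arm reads. The 56 arms with 100 or more reads in both libraries split into 13 higher in testis, 7 higher in uterus and 36 not called. All 19 that passed in testis only were higher there, 15 of them with no uterus read, as the minimum and depth demand. The 146 that passed in uterus only split into 21, 24 and 101. In all, 78 kept arms had under 10 testis reads, and so did 19 of the 31 called higher in uterus. A minimum of 500 reads kept 118 arms, 20 of them higher in testis and 27 in uterus, and the same minimum share in both libraries kept 84, with 32 and 11. A minimum of 4 reads kept 543, with 304 and 31. Counts of distinct sequences in place of reads gave 13 and 4. Just inside the minimum lay miR-471-3p with 100 testis reads and none in uterus, and miR-10a-3p with none and 106. Just outside lay miR-201-5p with 96 testis reads and none in uterus, and miR-674-3p with 1 and 98.

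**Figure D2:**
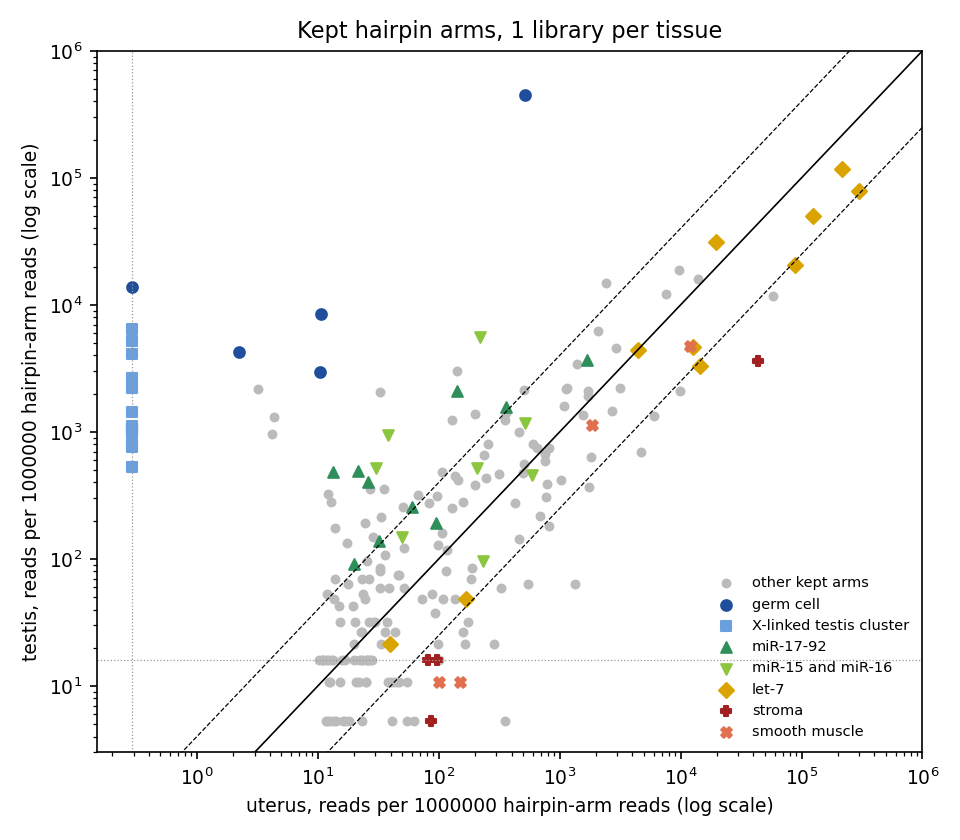
Each point is 1 of the 221 kept arms, with reads per 1000000 hairpin-arm reads in uterus (x) and testis (y), both on log scales, and coloured by microRNA list. The solid line marks equal shares and the dashed lines 4-fold, an arm with 0 reads is drawn at the 3-read limit (dotted lines: 0.289 in uterus, 16.02 in testis), and points under the testis limit have 1 or 2 reads. The X-linked testis cluster lies on the uterus limit, and miR-34c-5p lies at the top. The let-7 5p arms lie at the right from above the solid line (let-7g-5p) to the lower dashed line (let-7b-5p, let-7e-5p). Of the same list, let-7d-3p and miR-98-5p lie further left, at 39.2 and 167 in uterus.

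Male germ cell and gonadal microRNAs stood far higher in testis. Of this list (miR-34b, miR-34c, miR-449a, b and c, miR-184 and miR-202), 5 of 10 arms with reads were kept and all 5 were called higher in testis, against 24% of all kept arms, with a median log2 ratio of 9.77 against 0.29. Of the 5, miR-202-5p and miR-449a-5p were kept only through testis and had to be called, so the count itself supports nothing. Together the list held 47.7% of testis and 0.0538% of uterus arm reads. miR-34c-5p, at 447111 reads per 1000000 in testis and 512 in uterus, differed by log2 9.77 (interval 9.73 to 9.81), an 873-fold ratio. miR-34b-5p, from the same short cluster (GRCm38, chr9:51103034-51103645, minus strand, between annotated genes), had 1579 testis reads and 111 uterus reads, log2 9.62 (9.34 to 9.91). The ratios of these neighbours thus overlap within counting error. miR-449a-5p, which lies in an intron of Cdc20b and has the same seed, had 803 and 23 reads, log2 10.92 (10.32 to 11.58). miR-184-3p, on chromosome 9, had 556 and 108 reads, log2 8.16 (7.86 to 8.47). miR-202-5p, a gonadal microRNA in an exon of the noncoding gene Gm2044 (chr7:139957689-139957760, minus strand), had 2606 testis reads and none in uterus. With 3 counts in place of 0 its share was 48114-fold higher in testis, and the lower limit of the exact interval was 39102-fold. Under each scaling above these arms stayed higher in testis, by at least 4-fold except for miR-184-3p per all reads, where the list's median was 3.40.

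The X-linked testis cluster had no uterus read at all. Of the 31 arms with reads 14 were kept, all through testis alone, so at these depths each had to be called higher in testis, and that count supports nothing. Every one had 0 reads among the 10372607 arm reads of uterus, so each ratio is a lower bound. The list summed to 6225 testis reads, 3.32% of the arm reads, which is at least 114932-fold the share that 3 reads would make in uterus. Its leading arm was miR-881-3p with 1214 testis reads, 6483 per 1000000 (6124 to 6857). Then came miR-470-5p with 975, miR-743b-3p with 763, miR-465c-5p with 494 and the merged miR-465a/465b/465c-3p with 418. The others ran from 268 reads for miR-743a-3p to 100 for miR-471-3p. In uterus none of these arms was detectable at a limit of 0.289 per 1000000. These arms come from hairpins on the minus strand of the X chromosome in 3 groups of neighbours, chrX:66776757-66780833, chrX:66792595-66814025 and chrX:66832517-66839125. The seeds printed above show sequence relations inside the cluster: miR-743a-3p and miR-743b-3p share one, and miR-465a-5p and miR-465c-5p another.

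The arms of miR-17-92 and its paralogs, known from dividing cells, also had larger shares in testis. Of 10 kept arms 8 were called higher in testis, against 24% of all kept arms, and none in uterus, with a median log2 ratio of 2.15, which falls to 0.76 with TMM and 0.65 with DESeq2 and turns to -4.22 per all reads. miR-20a-5p had 91 testis and 139 uterus reads, log2 5.18 (4.78 to 5.57). miR-19b-3p had 92 and 221 reads, log2 4.53 (4.16 to 4.88), and miR-93-5p had 395 and 1464, log2 3.90 (3.74 to 4.06). miR-25-3p, a neighbour of miR-93, was less than 4-fold apart, with 687 and 17457 reads and log2 1.12 (1.01 to 1.23). The 5 kept arms of the miR-25, miR-93 and miR-106b cluster, which overlaps Mcm7 on chromosome 5, ranged from 1.01 to 3.90, so neighbours cut from 1 transcript differed among themselves. Among the 4 kept arms of the miR-17 cluster on chromosome 14 the range was 2.11 to 5.18.

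miR-15 and miR-16, which are known to restrain the cell cycle, split by member. In this list 3 of 8 kept arms were called higher in testis, against 24% of all kept arms, and none in uterus, with a median of 1.45 (0.06 with TMM, -0.05 with DESeq2 and -4.92 per all reads). miR-16-5p had 1038 testis and 2265 uterus reads, log2 4.67 (4.56 to 4.77). miR-15b-5p had 178 and 396 reads, log2 4.64 (4.37 to 4.90), and miR-15a-5p 97 and 317, log2 4.08 (3.74 to 4.42). These 3 stayed higher in testis with TMM and DESeq2 factors, while per all reads miR-16-5p was at -1.71 and miR-15b-5p at -1.74. The other members were not called although several share the seed AGCAGCA: miR-195a-5p stood at log2 1.32 (1.02 to 1.62) and miR-497-5p at -1.28 (-2.03 to -0.61). The latter pair comes from neighbouring hairpins on chromosome 11.

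Other arms higher in testis belonged to no list of several members. miR-34a-5p, the remaining member of the miR-34 family, had 181 testis and 43 uterus reads, log2 7.87 (7.38 to 8.38). miR-375-3p, known from endocrine and epithelial cells, had 387 and 338 reads, log2 5.99 (5.77 to 6.20). miR-191-5p had 2792 and 24891 reads, log2 2.64 (2.58 to 2.69), which is -3.74 per all reads. miR-34a-5p and miR-375-3p were named after their values were seen. For miR-3470a-5p and miR-3470b-5p, also called higher in testis, 99.3% and 100% of the reads lie on another annotated small RNA.

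Stromal microRNAs were higher in uterus. All 4 kept arms of miR-199 and miR-214, which are known from mesenchymal cells, were called higher in uterus, against 14% of all kept arms, with a median log2 ratio of -3.09. miR-199a/199b-3p had 682 testis and 455707 uterus reads, 3642 and 43934 per 1000000, log2 -3.59 (-3.70 to -3.48), a 12.1-fold higher share in uterus. miR-214-3p had 1 testis read and 889 uterus reads, a 16.05-fold higher share in uterus (2.87 to 635). miR-199a-5p had 3 and 1003, and miR-199b-5p none and 849. With 3 counts in place of 0 the share of miR-199b-5p was 5.11-fold higher in uterus, and the lower limit of the exact interval was 4.15-fold. The last 3 rest on few testis reads, and their intervals are wide. These 3 were also kept only through uterus, so the count of calls is not read as support. miR-199a-2 and miR-214 lie in the noncoding gene Dnm3os on the plus strand, chr1:162217814-162223477. This was the only one of 29 groups of neighbouring hairpins whose kept arms were all called higher in uterus. It holds 2 kept arms, and 1 of them, miR-199a/199b-3p, is merged from 3 hairpins and was only placed here. Its reads therefore cannot be assigned to Dnm3os.

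Of the muscle microRNAs miR-1a-3p was called higher in uterus, while the main arms of miR-143 and miR-145a were under 4-fold. In the smooth muscle cluster 2 of 4 kept arms were called higher in uterus, against 14% of all kept arms, with a median of -2.27. Its main arm, miR-143-3p, was below 4-fold, with 894 testis and 123105 uterus reads, 4774 and 11868 per 1000000, log2 -1.31 (-1.41 to -1.22). miR-145a-5p was also below it with 213 and 19308 reads, log2 -0.71 (-0.91 to -0.52). The called pair were the minor arms, miR-145a-3p with 2 and 1548 reads and miR-143-5p with 2 and 1042. This pair was kept only through uterus, so the count of calls is not read as support. Striated muscle is represented by miR-1a-3p, with 2199 and 597957 reads, 11742 and 57648 per 1000000, log2 -2.30 (-2.36 to -2.24), and by miR-133a-3p, with 9 and 753, log2 -0.60 (-1.73 to 0.34). Outside let-7 and miR-34c, miR-1a-3p ranked 6 among testis arms and 1 among uterus arms. Which cells of either tissue carry it was not tested.

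Epithelial microRNAs were divided. Of 6 kept arms, 3 were called higher in uterus (14% of all kept arms) and none in testis (24%), with a median of -1.42. miR-200a-3p had 11 testis and 3363 uterus reads, log2 -2.46 (-3.47 to -1.62), miR-200c-3p had 3 and 1045, and miR-200b-3p 4 and 1022. miR-203-3p, known from skin epithelium, stood the other way with 52 and 855 reads, log2 1.75 (1.32 to 2.16). miR-429-3p, from the same cluster as miR-200a and miR-200b, had 14 and 480 reads, log2 0.69 (-0.19 to 1.45). As the testis counts here are 52 at most, the testis side is known only roughly. All 6 arms were kept only through uterus, so the count of calls is not read as support. No arm of the miR-183, miR-96 and miR-182 cluster passed the minimum, with 14 testis and 131 uterus reads in all.

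The let-7 family held 31.1% of testis and 77.9% of uterus arm reads. Of 10 kept arms 2 were called higher in uterus, near the 14% of all kept arms, and none in testis, with a median of -1.38, and the members did not move alike. let-7e-5p was at log2 -2.12 (-2.24 to -2.01) and let-7b-5p at -2.11 (-2.15 to -2.06). let-7c-5p was at -1.93 (-1.95 to -1.90), just under 4-fold, with 14763 testis and 3106537 uterus reads. let-7a-5p was at -1.31 (-1.34 to -1.28) and let-7f-5p at -0.87 (-0.89 to -0.85). let-7i-5p had equal shares, log2 0.00 (-0.10 to 0.10), and let-7g-5p a larger one in testis, 0.67 (0.64 to 0.71), which is below 0 with TMM, DESeq2 and all reads. The intervals of let-7g, let-7f, let-7a and let-7c do not overlap, so these members with the same seed differed beyond counting error in how their shares compare. Their matches are exact over the whole read, though let-7b, let-7c and let-7a differ from each other by few bases.

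Several of the largest ratios toward uterus lay outside those lists. miR-221-3p had 12 testis and 13914 uterus reads, log2 -4.39 (-5.34 to -3.58), a 20.9-fold higher share in uterus. Its neighbour miR-222-3p had 12 and 5710, log2 -3.10 (-4.06 to -2.30). They are cut from 1 region of the X chromosome, chrX:19146294-19146971 on the minus strand, and share the seed GCUACAU. miR-21a-5p, widely expressed in somatic tissues and located in an exon of Vmp1, had 394 and 102389 reads, log2 -2.23 (-2.38 to -2.09). miR-193a-3p had 4 and 2955 reads, log2 -3.74 (-5.61 to -2.38).

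In the Hox clusters the members were split by gene. miR-196b-5p, which lies in an exon of Hoxa9 (chr6:52230081-52230165, minus strand), had 1 testis and 3647 uterus reads, and its log2 ratio of -6.04 (-11.35 to -3.56) was the lowest among the kept arms. miR-10a-5p had 129 and 49148 reads, log2 -2.78 (-3.04 to -2.53). miR-10b-5p, with the same seed, had 407 and 11758 reads and a ratio in the other direction, log2 0.94 (0.79 to 1.08), which falls below 0 with TMM, DESeq2 and all reads. Of the 6 kept arms 2 were called higher in uterus, against 14% of all kept arms, and none in testis, with a median of -0.57. Of the 2, miR-196b-5p was kept only through uterus, so the count is not read as support. In 3 of the 6 (miR-10a-3p, miR-196a-5p and miR-196b-3p) testis had no read, and their ratios are upper bounds.

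No marker of blood or vessels was called, but testis counts were low. The 4 kept leukocyte arms, 3 erythroid arms and 2 endothelial arms had medians of -0.64, 0.59 and -0.92, which are -2.03, -0.80 and -2.31 with TMM. In 1, 2 and 2 of them the interval leaves 4-fold possible, and the endothelial list rests on 6 testis reads. Summed, leukocyte arms made 0.0993% of testis and 0.110% of uterus arm reads, erythroid arms 0.0267% and 0.0158%, and endothelial arms 0.00320% and 0.00502%. The leading leukocyte arm miR-146b-5p had 140 and 8493 reads, log2 -0.13 (-0.38 to 0.11), and miR-142a-5p had 16 and 1968, log2 -1.15 (-1.96 to -0.45). miR-451a-5p, of red cells, had 30 and 1107, log2 0.59 (0.01 to 1.11). Of microRNAs of brain or liver, tissues that were not sampled, only miR-122-5p was kept, with 173 uterus reads and none in testis. With its arms under the minimum, this brain and liver list summed to 95 testis and 187 uterus reads. These made 0.0507% of testis and 0.00180% of uterus arm reads, a 28.1-fold larger share in testis (summed log2 ratio 4.81). All of its testis reads thus lay in arms that were not kept, and the reason for this difference was not tested.

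The remaining lists held few calls. In the imprinted Dlk1-Dio3 region, expressed from the maternal chromosome, none of 16 kept arms was called, and the median was 0.07. For 11 of the 16 the interval or bound leaves 4-fold possible, and miR-485-3p and miR-485-5p had no testis read. Its leading arm miR-127-3p had 117 and 118 reads per 1000000. None of 7 arms of miR-99, miR-100 and miR-125 was called, with a median of -0.17, but miR-125b-5p at -1.54 (-1.81 to -1.28) and miR-100-5p at 1.54 (1.19 to 1.86) lay on opposite sides. The miR-29 arms had a median of 0.57 over 3 and the miR-26 arms 0.19 over 2, with no call. Of 8 miR-30 arms, all with larger shares in testis, 1 was called, and the median was 0.95, which is -0.44 with TMM. Among the 7 arms of the miR-23, miR-27 and miR-24 clusters 2 were called higher in uterus, against 14% of all kept arms, with a median of -1.28. Both called arms were kept only through uterus, so their count is not read as support. One of them, miR-27a-3p, had 6 testis and 1803 uterus reads, log2 -2.44 (-3.89 to -1.31). Its ratio depends on the length window, as most uterus reads that match it are shorter. At 18 to 44 nt it had 7 testis and 9093 uterus reads, further toward uterus, with reads that match several arms counted for each. For miR-27b-3p, with the same seed, uterus reads rose likewise, from 1412 to 11191. Whether the shorter reads belong to miR-27a-3p alone was not tested. With reads of 21 to 23 nt only, the log2 ratio of miR-27a-3p was 0.47 and the call was lost.

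**Figure D3:**
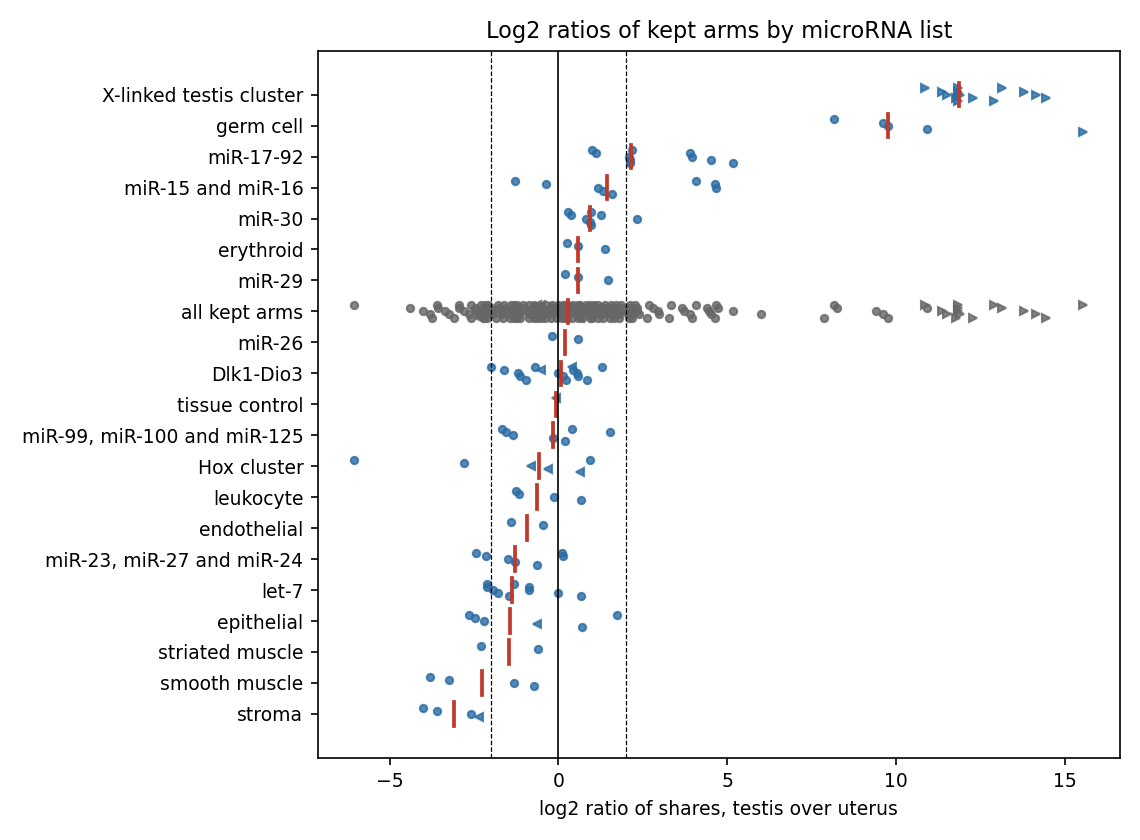
Log2 ratios of shares, testis over uterus (x), for the kept arms of each list (points), with red bars for the medians and dashed lines at 4-fold. Triangles mark arms with 0 reads in a library, as bounds that point to where the ratio may lie further out. Medians run from -3.09 for stroma to 11.88 for the X-linked testis cluster, and that of all kept arms is 0.29.

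No arms that share a seed were called in opposite directions, but some arms not called differed in sign from called ones. Among the 221 arms were 165 seeds, 30 of them in 2 or more arms and 86 arms in those. Most of these 30 did not have 2 or more called arms, so opposite calls could not occur there. The miR-743 pair and the miR-465 pair were kept through testis alone and had to be called. miR-193a-3p was at log2 -3.74 (-5.61 to -2.38) and miR-193b-3p, with the same seed, at 1.57 (0.64 to 2.37). For miR-148b-3p the ratio was 2.69 (2.18 to 3.17), against -0.88 (-1.05 to -0.70) for miR-152-3p. The seed GGCAGUG of miR-34a, miR-34b, miR-34c and miR-449a made 46.1% of testis and 0.0529% of uterus arm reads. The seed GAGGUAG of let-7 and miR-98 made 31.1% and 77.9%. Members of the former were all 4 called higher in testis, and of the 9 arms of the latter 2 were called higher in uterus. The seed AAAGUGC of miR-17, miR-20a, miR-93 and miR-106b had a summed log2 ratio of 3.53 (3.40 to 3.66), and AGCAGCA of the miR-15 and miR-16 group 3.32 (3.24 to 3.40). The seed GCUACAU of miR-221 and miR-222 had -3.88 (-4.53 to -3.31).

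Calls in opposite directions were also not found among neighbouring hairpins, though ratios under 4-fold did differ in sign, as in miR-195a and miR-497. Hairpins at most 10 kb apart on 1 strand formed 29 groups that hold 101 kept arms. In 8 groups every kept arm was called higher in testis, in 1 every arm higher in uterus, and none had calls in both directions. Of all kept arms, 24% were called higher in testis and 14% in uterus. The 8 groups include those of the X-linked testis cluster, whose arms had to be called. The 1 group toward uterus includes a merged arm that was only placed there. Many groups had too few called arms for opposite calls to occur. Besides those already named, the groups all higher in testis include miR-191 with miR-425 on chromosome 9 and miR-296 with miR-298 on chromosome 2. Of the kept arms, 58 come from hairpins that overlap an exon of another gene on the same strand, 82 from introns and 81 from hairpins between genes. Calls toward testis and uterus numbered 12 and 7 in exons, 16 and 12 in introns, and 25 and 12 between genes. Over all 221 kept arms they were 53 and 31. The 25 include the 14 arms of the X-linked testis cluster, which had to be called, so no leaning of hairpins between genes is read from these counts.

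On the X chromosome lay 34 kept arms, of which 16 were called higher in testis and 2 in uterus, with a median of 1.83. Autosomes had 187, of which 37 and 29 were, with a median of 0.19. Without the 14 arms of the X-linked cluster, the other 20 X-linked arms had 2 calls each way and a median of -0.18. X-linked arms made 15.5% of testis and 22.01% of uterus arm reads, most of it let-7f-5p, whose copies on the X chromosome and on an autosome give the same reads and cannot be separated. A merged arm was placed at 1 of its hairpins in these counts.

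The choice of arm within a hairpin was nearly the same in both tissues. Of 70 hairpins with 100 or more arm reads in both libraries, 47 had reads of their own without merged copies, and in 44 of these the same arm held 90% or more in both libraries. The leading arm differed in 1 of 47 (2.13%). In miR-17 the 5p arm had 76 reads and the 3p arm 26 in testis, a 5p share of 74.5% (64.9 to 82.6), and 272 and 333 in uterus, a share of 45.0% (40.9 to 49.0). In miR-322 the 3p arm led in both, while the 5p arm held 24.6% (17.0 to 33.5) in testis and 7.77% (7.14 to 8.44) in uterus. No other hairpin differed by 10 percentage points or more.

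Start sites were also shared. In the 56 arms with 100 or more reads in both libraries the most frequent first base was the same in 55. The exception was miR-101b-3p, whose reads began 1 base later in testis: 61.3% of testis reads started at hairpin base 61 and 36.8% at base 60, the RefSeq start, while uterus had 46.4% and 51.6%. This moves the seed by 1 base. Of 40 arms with a RefSeq start, 38 had it as the leading start in testis and 39 in uterus. Lengths shifted slightly: the mean read was longer in testis for 41 arms and in uterus for 15, with a median difference of 0.08 nt (range -0.40 to 0.88), and the most frequent length was equal in 54. In all arm reads the most frequent length was 23 nt in testis (48.4%) and 22 nt in uterus (73.2%), and miR-34c-5p, the leading arm of testis, is itself mostly 23 nt long.

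Untemplated bases at the 3′ end differ from the hairpin and were counted apart, since terminal transferases add A or U to mature microRNAs. Reads with 1 such base were compared in the same 56 arms. An added U had a median share of 5.16% in testis and 3.58% in uterus, and was more frequent in testis in 39 arms and in uterus in 17. An added A had medians of 5.21% and 5.79%, and was more frequent in testis in 19 and in uterus in 36. Added C and G stayed at medians of at most 0.143%. The 4 arms with most added U were the same in both tissues. miR-24-3p had 55.9% in testis and 61.8% in uterus, let-7i-5p 45.6% and 28.1%, miR-320-3p 39.5% and 28.1%, and miR-152-3p 36.9% and 33.8%. For added A, miR-378a-3p had 25.5% in testis and 15.9% in uterus, while let-7b-5p had 12.2% and 20.3%. In miR-34c-5p 6.61% of testis reads and 13.3% of uterus reads carried any added base. Within let-7 added U was common in let-7i, let-7e (15.3% and 17.1%) and let-7b (9.70% and 4.89%) and at most 0.141% in let-7a, c, d, f and g. Such reads lie outside the arm counts, so levels of arms that often carry an added base, miR-24-3p above all, are understated in both libraries. A last base that happens to match the hairpin cannot be told from a templated one.

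**Figure D4:**
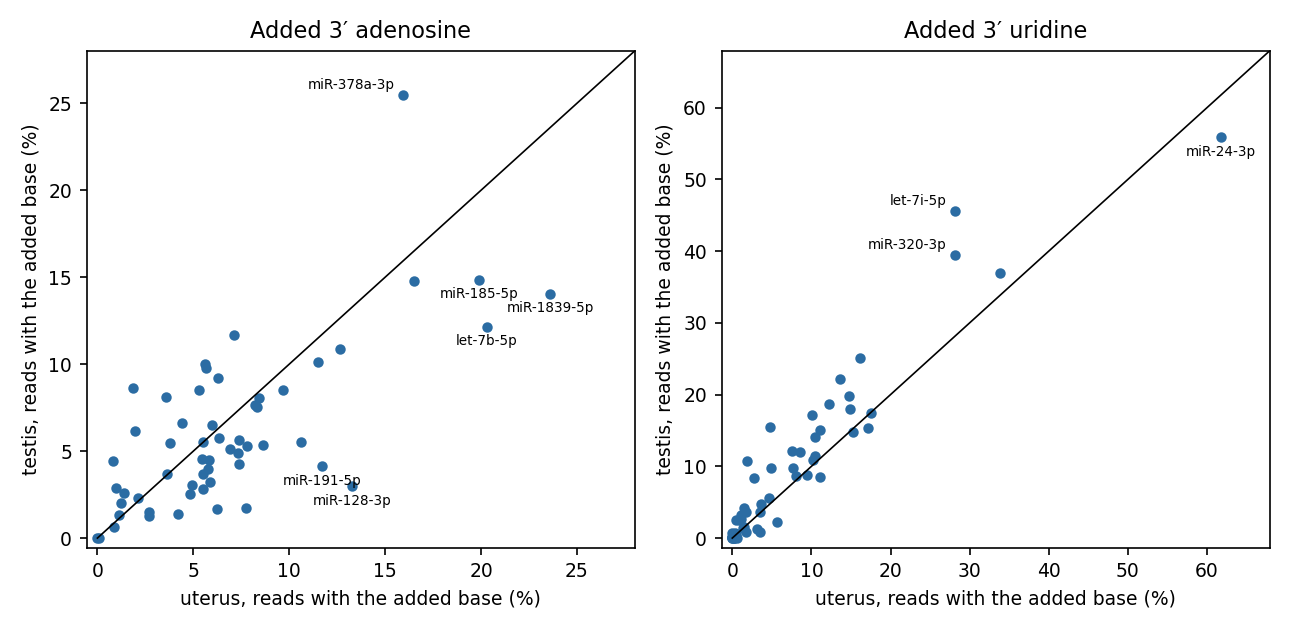
Each point is 1 of the 56 arms with 100 or more reads in both libraries, with the share of its reads (%) that carry 1 untemplated A (left) or U (right) at the 3′ end, in uterus (x) and testis (y). The line marks equal shares. More arms lie above the line for U (39 of 56) and below it for A (36 of 56), and miR-24-3p has most added U in both.

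Some annotated hairpins gave mainly longer reads in testis. Of 245732 testis reads of any length on hairpins, 56751 (23.1%) had 26 to 32 nt, the length of piRNAs, against 763 of 10509976 (0.00726%) in uterus. Of the testis reads 55047 (97.0%) came from miR-7210, miR-7234, miR-7222, miR-7217 and miR-468, none of which had such a read in uterus. miR-7210 (chr14:24088877-24088930, plus strand) alone had 48633, and only 92 of 20 to 24 nt, so that its 5p arm missed the minimum. Its leading read, shown because it is longer than a microRNA and begins with the T typical of piRNAs, had 26627 testis reads, with the first base in capitals.
miR-7210, leading testis read: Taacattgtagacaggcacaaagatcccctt

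No kept arm had more reads of 26 to 32 nt than of 20 to 24 nt in testis, so these longer reads are not among the arm levels above. They are also not in the denominator. In uterus 92626 hairpin reads of 19 nt and 34064 of 18 nt lay below the window, and 9916 of 25 nt above it.

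**Figure D5:**
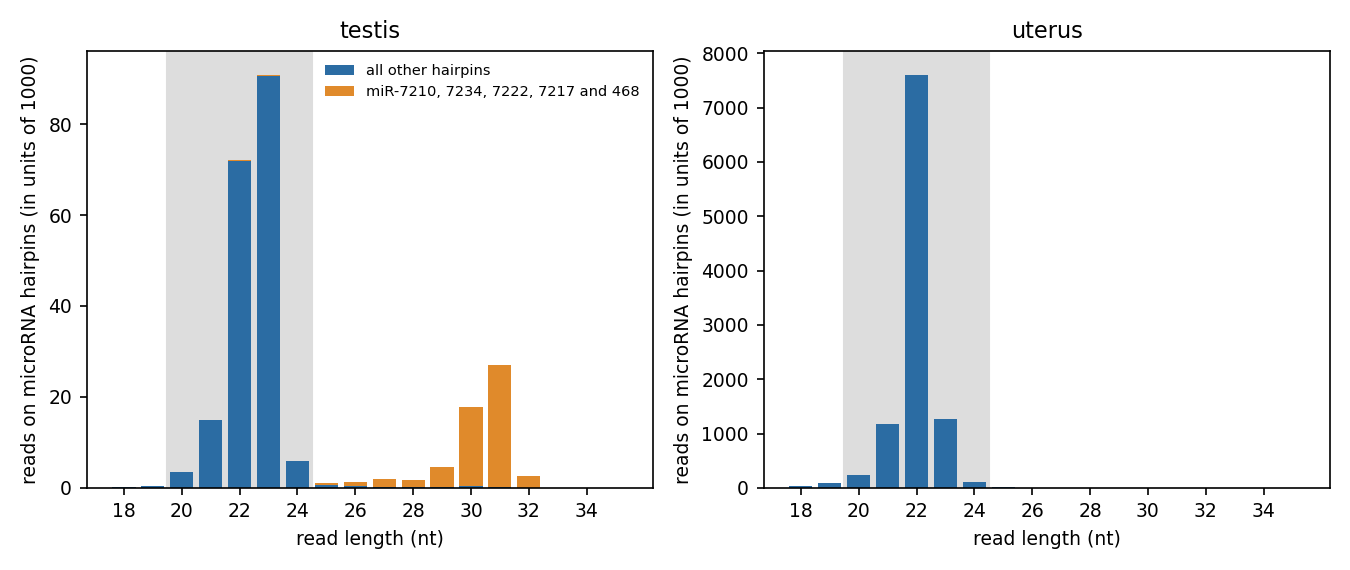
Bars give reads on microRNA hairpins (in units of 1000) by read length (nt) in testis (left) and uterus (right), with miR-7210, miR-7234, miR-7222, miR-7217 and miR-468 in orange and all other hairpins in blue. The grey band marks the 20 to 24 nt window. Testis has a second mode at 31 nt that is nearly all orange and uterus has none.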

How the data were processed

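Small RNAs of adult testis and uterus of CD1 mice were sequenced, 1 library each. Each deposited table gives read sequences and their counts; the values are whole-number counts that the authors did not normalize as far as the values show. Genome build mm9 is named in the submitters' processing notes, and for adapter trimming and size selection the sources used here name no tool. Read lengths in the tables span 18 to 44 nt, and 1 line of the testis table without a sequence was left out.

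Reads of 20 to 24 nt were matched exactly and in sense to 1174 hairpins of GENCODE release M21 (GRCm38) whose symbols start with Mir, and coordinates are those of that build, not converted. Arms that shared 50% or more of the reads of both were merged, and the remaining reads on several arms went to the arm with most reads of its own (1061 in testis, 32907 in uterus). Arms with 100 or more reads in either library were kept and scaled to all arm reads, with and without let-7 and miR-34c hairpins.

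With 1 library per group no test was made. An arm was called where its shares differed by 4-fold or more. Shares have exact Clopper-Pearson intervals and ratios conditional exact binomial intervals, at 95%. A ratio against 0 reads used 3 counts in place of 0, per library, and is a bound. Depth was 187269 arm reads in testis and 10372607 in uterus. On simulated counts for the 848 arms of this comparison, arms raised 8-fold in testis were called in 100% of 28 cases and in uterus in 61.7% of 47, and 0.588% of 170 unchanged arms were called. These counts held counting error only, and the known shift of the simulated totals was removed, which cannot be done in the real data. The percentages are therefore not error rates of the calls above, which also depend on scaling, PCR and animals.

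Named are the 10 arms with most reads in each library, the 10 with the largest ratio each way by the bound nearest to 1, up to 4 kept members of each of 21 lists, arms beside the minimum, and hairpins or arms whose leading arm or start differs. Others were named after their values were seen: miR-34a-5p, miR-375-3p, miR-184-3p, miR-15a-5p, miR-20a-5p, miR-100-5p, miR-195a-5p, miR-497-5p, miR-200c-3p, miR-196a-5p, miR-485-3p, miR-485-5p, let-7i-5p and those in the tail, seed and cluster comparisons. The arms and lists were chosen with earlier results of these data known. Alternatives were other denominators, read lengths, minimums and counts of distinct sequences, and, added after seeing the data, reads with a tail, 7 arms left out and factors over kept arms. Python 3.11.15 with scipy 1.17.1, and R 4.3.3 with edgeR 4.0.16 and DESeq2 1.42.0 for scaling factors only, were used.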

Additional observations from a re-analysis of the deposited data

Results flagged for a closer look

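Reads of 26 to 32 nt on microRNA hairpins lie outside the arm counts, and in testis they stood above the limit that a count of 0 allows on hairpins where uterus had none. miR-7210 had 48633 such reads in testis, miR-7234 had 4032, miR-7222 had 1278, miR-7217 had 571 and miR-468 had 533. In reads of 20 to 24 nt the same hairpins had 92, 12, 32, 45 and 26 in testis and none in uterus.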

How the results depend on the processing

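The number of arms called higher in testis (53) and in uterus (31) depended on the scaling and on the minimum. Per all reads they were 19 and 191, with TMM factors 35 and 76, with DESeq2 size factors 35 and 82, by distinct sequences 13 and 4, with the same minimum share in both libraries 32 and 11, and at 2-fold 82 and 62. A minimum of 4 reads gave 304 toward testis and one of 500 gave 20. The number kept was 543 at 4 reads, 118 at 500 and 84 with the same minimum share. The leading arm differed in no hairpin (0) with 500 or more reads in both libraries, where 16 remained, and in 2 by distinct sequences. Per all reads the miR-17-92 median turned to -4.22, and miR-191-5p to -3.74, miR-93-5p to -2.47, miR-92a-1-3p to -4.26, miR-19b-3p to -1.85, miR-16-5p to -1.71 and miR-15b-5p to -1.74, by the construction of that scaling, which moves every log2 ratio by -6.37. By distinct sequences let-7b-5p was at 0.13, miR-199a/199b-3p at 0.32 and miR-222-3p at 0.06, and with reads of 21 to 23 nt miR-27a-3p was at 0.47; the cause was not tested. Of the other values of named arms, 407 moved beyond their counting interval, 84 of them with a change of sign in arms under 4-fold, and 853 did not, 20 with a change of sign. Of those of list medians 110 moved, 27 with a change of sign, and 222 did not, 9 with one. No replicate could be left out. No paired analysis was possible because each tissue has 1 library. Testis depth limits the calls toward uterus, as 78 kept arms had under 10 testis reads.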
